A study of Mus musculus with 2 samples.

Results

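Venous endothelial cells of the mouse cerebellum were examined in single-cell RNA sequencing data from wild-type (WT) mice and KIKO mice, a knock-in and knock-out model of Friedreich ataxia. The cells were selected on measured transcripts, by a rule that used no clustering. A cell counted as endothelial when at least 3 of the 5 genes Cldn5, Flt1, Pecam1, Cdh5 and Slco1a4 and fewer than 3 of the 5 pericyte genes Abcc9, Kcnj8, Atp13a5, Vtn and Notch3 had a UMI (unique molecular identifier, 1 counted transcript). It counted as venous when at least 3 of the 7 genes Vwf, Slc38a5, Il1r1, Vcam1, Ndnf, Lmntd1 and Flrt2 and fewer than 3 of the 7 arterial genes Gkn3, Bmx, Egfl8, Sema3g, Vegfc, Npnt and Igfbp3 were detected. This gave 231 venous cells in WT and 360 in KIKO, 591 of the 2111 endothelial cells and of the 3451 cells kept in all. They were compared with 1282 other endothelial cells that met neither panel, and with 204 arterial cells. Another 34 cells, 14 of WT and 20 of KIKO, met both panels and entered no comparison.

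The study asked which cell types of the cerebellum are affected at an early stage in this model. KIKO mice carry a knocked-in allele over a knocked-out allele of the disease gene, and the WT mice were C57BL/6 littermates. Both groups were 6 months old, and each is 1 library made from the pooled cerebella of 4 mice, dissociated, frozen and thawed before droplet capture. With 1 library a group, no difference between WT and KIKO has a replicate check, none was tested, and genotype, pool and library cannot be told apart.

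Brain venules and veins collect blood from the capillaries. In the rest of the body the venule wall is where leukocytes attach and leave the blood, and brain veins are likewise known as a site of response to cytokines such as interleukin-1. Their identity depends on the nuclear receptor COUP-TFII (Nr2f2), which holds Notch signalling and the arterial program down. In brain, arterial, capillary and venous cells form a continuous gradient along the vessel tree, and all of them carry the blood-brain barrier.

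The 591 cells carried the general endothelial genes, of which the rule required at least 3, at high level in both libraries. Levels are given as CPM, the gene's UMIs summed over the cells of a class per 1000000 UMIs of that class. Cldn5, the main claudin of the barrier, stood at 3288 CPM in venous cells of WT and 3612 CPM in those of KIKO, and Pecam1 at 633 CPM in both. All 7 genes of the arterial panel were lower in venous than in arterial cells of each library. Sema3g, a guidance factor of arterial endothelium, stood at 12.4 and 13.1 CPM in venous cells of WT and KIKO against 263 and 281 CPM in arterial cells, and Gkn3 had 0 and 6 UMIs in venous cells. Against other endothelial cells, Vegfc was the only arterial panel gene higher in venous cells of both libraries, at 18.4 and 13.6 CPM against 7.11 and 8.22 CPM. Igfbp3 was level in WT, at 9.40 against 8.88 CPM. The endothelial and arterial panels were part of the rule, so that these levels only describe the cells chosen.

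The 7 venous panel genes chose the cells, so that their levels are a description and no finding. Vwf, the clotting factor that tethers platelets (chr6:125546774-125686679, plus strand, GRCm38), stood at 256 CPM in venous cells of WT and 264 CPM in those of KIKO, against 44.7 and 35.2 CPM in other endothelial cells and 120.5 and 90.1 CPM in arterial cells. Il1r1, the receptor through which interleukin-1 signals (chr1:40225080-40317257, plus strand), reached 315 and 384 CPM against 27.5 and 19.5 CPM in other endothelial cells. Both genes were thus high in venous cells of each library, and Vwf was shared with arterial cells.

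Slc38a5, a sodium-coupled carrier of glutamine and related amino acids (chrX:8271133-8280179, plus strand), stood at 142 and 173 CPM in venous cells against 35.2 and 39.4 CPM in other endothelial cells. It was close to absent from arterial cells, where WT had 2 UMIs and KIKO 0 in 131 cells, where a floor of 3 counts allows up to 2.29% of cells to hold a UMI. Vcam1, the adhesion molecule bound by leukocyte integrin (chr3:116109949-116129688, minus strand), stood at 151 and 182 CPM in venous cells, with 18.4 and 5.35 CPM in other endothelial cells and 89.4 and 40.8 CPM in arterial cells. It was the most unevenly carried panel gene, found in 27.7% of venous cells of WT and 29.7% of KIKO, whereas the other 6 were found in 45.02% to 74.5%. In microglia-like cells, which should lack them and were shallower (median 4255 and 5743 UMIs), those 6 genes had a UMI in 0% to 3.92% of cells and Vcam1 in 11.5% and 15.03%.

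Ndnf, a secreted neuron-derived factor, stood at 154 and 232 CPM in venous cells of WT and KIKO against 46.5 and 48.4 CPM in other endothelial cells. Flrt2, a cell-surface adhesion protein, stood at 153 and 241 CPM against 40.3 and 39.97 CPM, and Lmntd1, which encodes a protein with a lamin tail domain, at 84.6 and 149.6 CPM against 22.5 and 36.3 CPM. These 3 genes were higher in venous cells of KIKO than of WT, by a log2 ratio of 0.59 for Ndnf (95% interval 0.42 to 0.78), 0.65 for Flrt2 (0.47 to 0.83) and 0.82 for Lmntd1 (0.59 to 1.06). The ratio of Vwf was 0.04 (-0.11 to 0.19), and the remaining 3 lay between 0.27 and 0.29. The 7 genes set which cells were venous and which were other, so that these ratios are a description too. In other endothelial cells the ratios of KIKO over WT were 0.06 for Ndnf, -0.01 for Flrt2, 0.69 for Lmntd1 and -0.35 for Vwf. They were 0.16 for Slc38a5, -0.50 for Il1r1 and -1.78 for Vcam1. For Vcam1, 1 cell held 59.7% of the UMIs in other endothelial cells of WT. All intervals here are exact Poisson or binomial ones and cover counting error only, not the spread between animals.

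Each panel gene was then read in cells chosen without it, by 3 or more of the remaining 6 genes. Every one of the 7 was higher in the cells so chosen than in the other endothelial cells, in both libraries. Il1r1 was higher by a log2 ratio of 2.22 (2.003 to 2.43) in WT and 3.13 (2.93 to 3.33) in KIKO, and Vwf by 1.54 (1.32 to 1.75) and 2.48 (2.28 to 2.68). The lowest ratios were 0.72 (0.46 to 0.97) for Ndnf in WT and 0.96 (0.74 to 1.17) for Lmntd1 in KIKO. The panel genes thus occurred together in the same cells, although deeper cells show more of every gene and were more often chosen.

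Venous cells made up 28.3% of endothelial cells in WT (231 of 817, 25.2 to 31.5) and 27.8% in KIKO (360 of 1294, 25.4 to 30.3), a difference of -0.45 percentage points (-4.42 to 3.44). The rule favors deeply read cells. Median depth was 9342 UMIs in venous cells of WT and 9313 in those of KIKO, against 6242 and 6384 UMIs in other endothelial cells. When every cell was thinned to 3000 UMIs, leaving out 82 shallower endothelial cells of WT and 129 of KIKO, the shares were 13.5% (11.1 to 16.1) and 14.8% (12.8 to 17.0), a difference of 1.34 points (-1.90 to 4.43). The share in each library thus depended on depth, and these intervals cover the counting of cells in 2 libraries, not the genotypes. The difference also turned with the choice of cells, at 6.66 points (3.63 to 9.51) without members holding at least 2 genes of another cell type list and -4.79 points (-8.57 to -1.04) with no upper UMI limit.

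**Figure D1:**
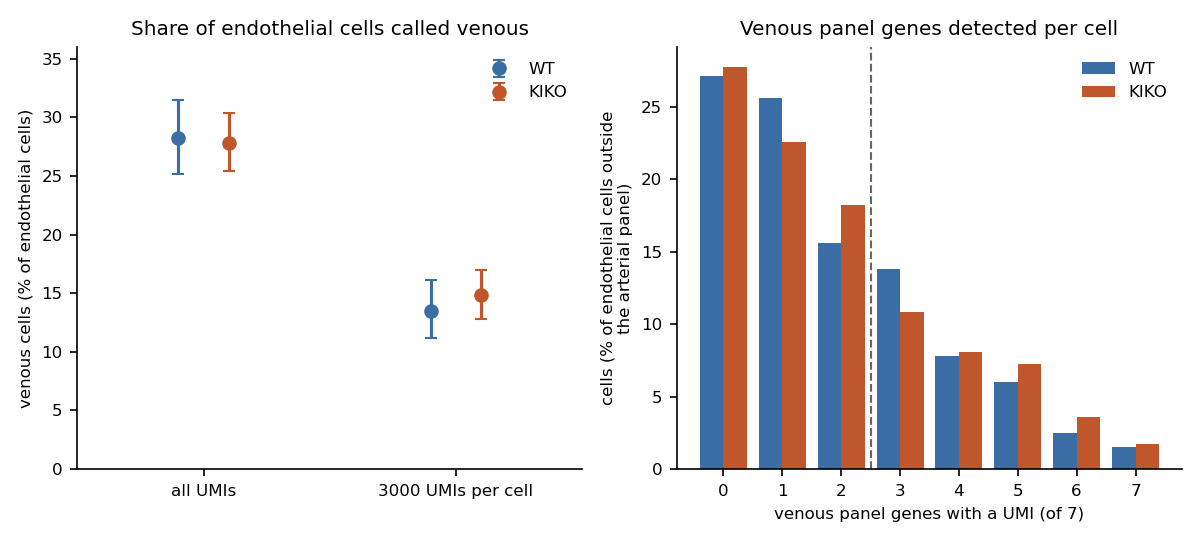
Left, share of endothelial cells called venous in WT and KIKO, in percent, from all UMIs and after thinning each cell to 3000 UMIs, with exact 95% binomial intervals. Right, endothelial cells outside the arterial panel by the number of venous panel genes with a UMI, in percent of those cells, with the threshold of 3 genes as a dashed line. The 2 libraries overlap on the left (28.3% and 27.8%, then 13.5% and 14.8%), and on the right the cells decline from 0 genes onward with no gap at the threshold.

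Cells lay on both sides of the threshold. Among the members, 101 cells of WT and 124 of KIKO had exactly 3 panel genes and 11 and 20 cells had all 7, whereas 114 and 208 endothelial cells had 2 and lay just outside.

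The libraries held 3237 (WT) and 3685 (KIKO) barcodes with 32285 genes listed, of which 1388 and 2063 barcodes passed the filters, and neither pair equals the cell numbers that the study states. Of 45 barcodes shared by the libraries, 0 belonged to venous cells. Choroid plexus epithelium genes summed to 2287 CPM in venous cells of WT and 830 CPM in those of KIKO, mostly Ttr, with at least 3 of the 6 list genes in 26 of 231 and 16 of 360 cells. Mural cell genes summed to 329.9 and 233 CPM and microglia genes to 188 and 140.4 CPM. Red blood cell genes summed to 526 and 71.3 CPM, with 91.2% of those of WT in 1 cell. Pericyte genes summed to 51.7 and 60.4 CPM, astrocyte genes to 50.4 and 46.8 CPM and oligodendrocyte genes to 22.6 and 21.2 CPM. Fibroblast genes summed to 3.85 and 44.9 CPM, with 48.5% of those of KIKO in 1 cell, and border macrophage genes to 1.71 and 11.4 CPM. T cell, B cell, neutrophil, neuron and lymphatic genes stayed at or below 3.81 CPM.

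Away from the rule genes, few genes were far higher or lower in venous cells, counted only where both libraries went the same way. Of 3584 genes with at least 50 CPM in 1 class and 30 UMIs, 15 were at least 2-fold higher in venous than in other endothelial cells in both WT and KIKO, which is 0.419% of genes, and 17 were at least 2-fold lower, 0.474%. Across these genes the log2 ratios of WT and KIKO had a Pearson correlation of 0.74, a description over genes, which are not independent. The cells were chosen on these same counts, so that all values of venous against other cells are a description without a test.

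**Figure D2:**
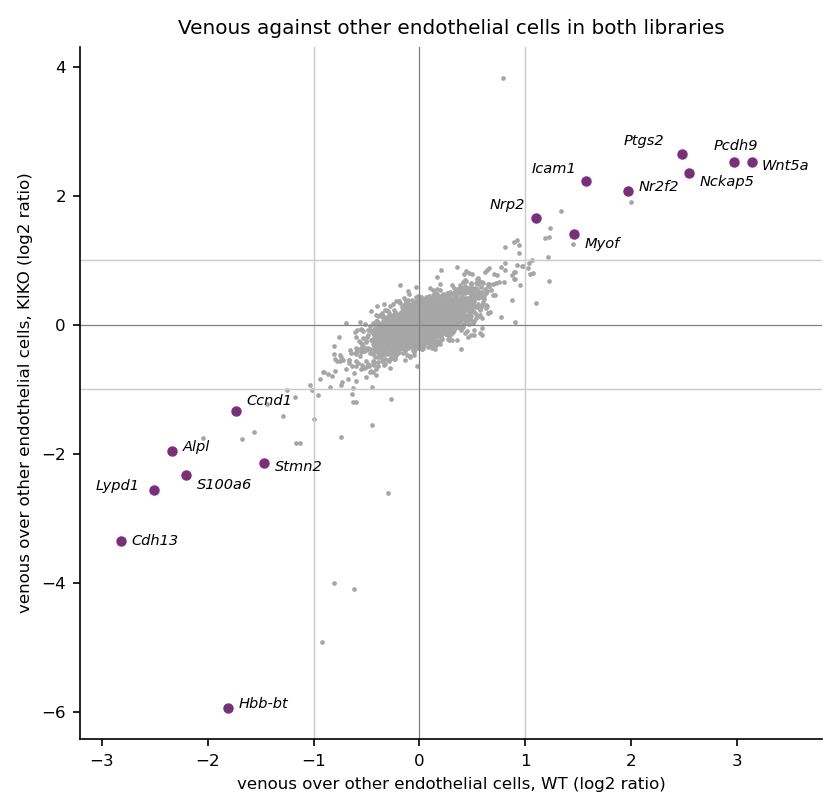
Log2 ratio of venous over other endothelial cells in WT (horizontal) and KIKO (vertical) for 3584 genes outside the rule, 1 gray point a gene, with named genes in purple and gray lines at 2-fold. Nr2f2, Ptgs2, Nckap5 and Wnt5a lie far up in both libraries and Cdh13, Lypd1, S100a6 and Alpl far down.

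Nr2f2, the transcription factor of venous identity (chr7:70351944-70366735, minus strand), stood at 169 CPM in venous cells of WT and 151 CPM in those of KIKO. Other endothelial cells had 43.2 and 35.8 CPM and arterial cells 22.0 and 16.9 CPM, so that the venous level was the highest of the 3 classes in each library. The log2 ratio of venous over other endothelial cells was 1.97 (1.69 to 2.25) in WT and 2.08 (1.83 to 2.32) in KIKO. Nrp2, a semaphorin and VEGF-C co-receptor typical of veins, stood at 72.2 and 97.9 CPM against 33.8 and 31.0 CPM in other endothelial cells and 14.3 and 4.22 CPM in arterial cells.

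Of the other genes past 2-fold, Icam1, Ptgs2 and Ctsc have known roles in immune cells or inflammation, and were singled out for that after their values were seen. Icam1, the adhesion molecule on which leukocytes arrest (chr9:21015985-21028817, plus strand), stood at 222 and 173 CPM against 74.9 and 36.9 CPM (1.57, 1.35 to 1.79, and 2.23, 1.99 to 2.47). Ptgs2, the inducible cyclooxygenase that makes prostaglandin precursors, stood at 62.8 and 56.6 CPM against 11.3 and 8.99 CPM, with arterial cells in between at 37.6 and 28.2 CPM. Ctsc, a lysosomal protease that activates granule enzymes of immune cells, stood at 151 and 190.4 CPM against 64.3 and 67.1 CPM.

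Microglia carry some of the same genes. In microglia-like cells, chosen by at least 4 of 8 microglia genes and under 3 endothelial genes, Icam1 stood at 248 and 273 CPM and Ctsc at 597 and 842 CPM, whereas Vwf had 0 and 3 UMIs. Microglia genes summed to 108 and 133 CPM in other endothelial cells, near the 188 and 140.4 CPM of venous cells, and 53.1% of the microglia UMIs in venous cells of WT came from 1 cell. The part of microglial RNA in these levels was not tested.

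Wnt5a, a secreted ligand that acts mainly outside the beta-catenin pathway, was high in venous cells and low in the other endothelial classes. It had 140 UMIs in venous cells of WT and 231 in those of KIKO, 59.8 and 62.8 CPM, against 6.81 and 10.9 CPM in other endothelial cells and 7.77 and 7.74 CPM in arterial cells. Microglia-like cells had 0 UMIs of it in both libraries. Nckap5, whose product binds microtubules, stood at 94.9 and 166 CPM against 16.3 and 32.5 CPM. Frmd5, a FERM-domain protein, stood at 199 and 318 CPM against 78.8 and 93.7 CPM, and Chn2, a Rac-directed GTPase activator, at 439 and 556 CPM against 193 and 219 CPM.

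**Figure D3:**
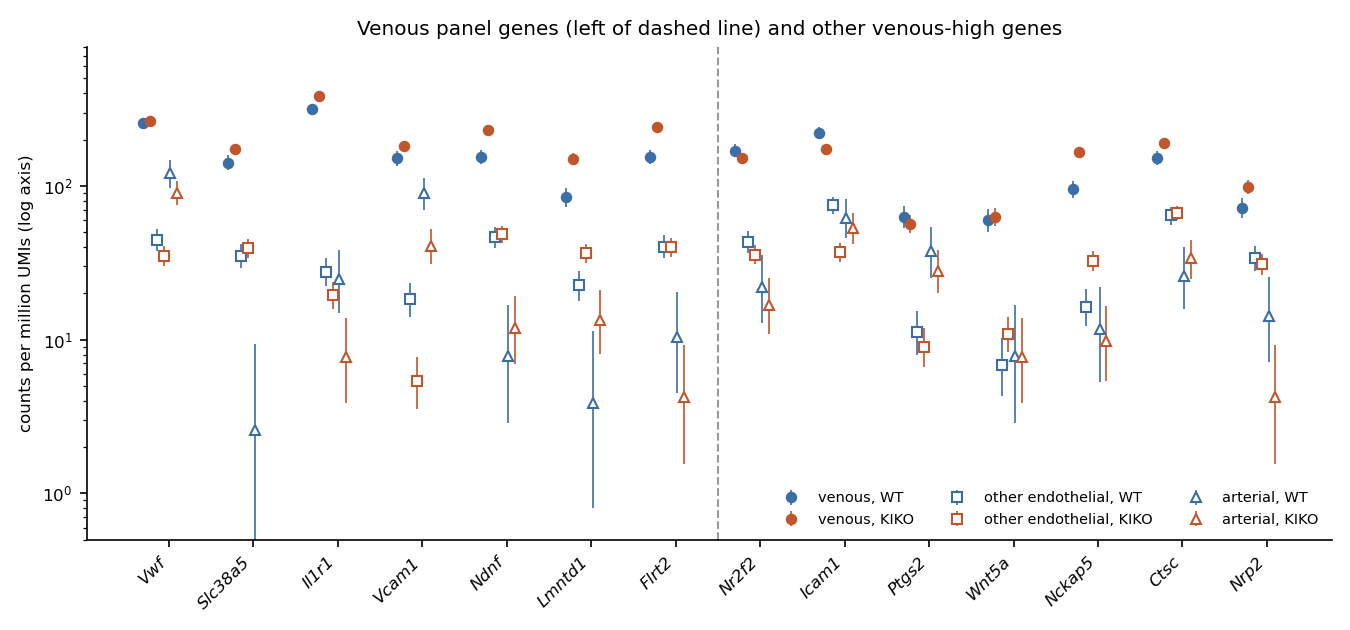
Level in CPM on a log axis of the 7 panel genes, left of the dashed line, and of 7 genes outside the rule, in venous (filled circles), other endothelial (squares) and arterial cells (triangles) of WT (blue) and KIKO (orange), with exact 95% Poisson intervals; classes with 0 UMIs are not drawn. Venous cells are highest for every gene shown in both libraries.

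The remaining genes past 2-fold were Pcdh9 and Pcdh11x, both protocadherins, Myof, Hs3st1, Ctsc and Fam13a. Hs3st1, which completes the heparan sulphate site bound by antithrombin, stood at 71.4 and 74.8 CPM against 26.1 and 31.4 CPM. Myof, a ferlin of membrane repair, was not particular to venous cells, since arterial cells had 72.6 and 47.9 CPM and venous cells 57.7 and 70.7 CPM. Pcdh9 rested on few cells, with 94.1% of its venous UMIs in WT and 96.7% in KIKO in the top 10% of cells.

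Several classical venule genes were at or near 0. Ackr1, the chemokine-binding receptor of venules elsewhere in the body, had 1 UMI in venous cells of each library, and Plvap, the diaphragm protein of leaky vessels, had 1 and 2 UMIs. The selectins that catch rolling leukocytes were also rare, Selp with 0 and 9 UMIs and Sele with 1 and 8 UMIs. Lrg1, a secreted glycoprotein of inflamed venules, was found in 11 venous cells of WT and 9 of KIKO with 57 and 74 UMIs, 56.1% and 63.5% of them in 1 cell of each library, and had 0 UMIs in other endothelial cells. Cyp2e1, an ethanol-oxidizing cytochrome P450, stood at 42.7 and 75.9 CPM in venous cells, 2.37 and 8.22 CPM in other endothelial cells and 0 UMIs in arterial cells.

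The genes lowest in venous cells were largely arterial ones. Cdh13, a T-cadherin anchored in the membrane (chr8:118283733-119324921, plus strand), stood at 12.8 and 9.79 CPM in venous cells, 90.6 and 100.2 CPM in other endothelial cells and 360.2 and 332 CPM in arterial cells. The log2 ratio of venous over other cells was -2.82 (-3.41 to -2.28) in WT and -3.35 (-3.88 to -2.87) in KIKO. Alpl, a tissue alkaline phosphatase, stood at 14.96 and 24.2 CPM against 75.5 and 93.9 CPM, and Stmn2, a tubulin-binding protein marking arterial cells of brain, at 68.4 and 42.7 CPM against 189 and 188 CPM. Lypd1, S100a6, Dync1i1, Rad54b, Tcim and Ccnd1 were each at least 2-fold lower in venous cells in both libraries and higher in arterial than in other endothelial cells. Hbb-bt was low in venous cells of KIKO with 6 UMIs, and in WT 1 cell held 97.2% of its venous UMIs.

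Gene lists gave the same order. Of 16 other venous genes, 11 had at least 10 UMIs, and 9 of them were higher in venous than in other endothelial cells in both libraries, 7 at least 2-fold, whereas 30.8% of 11426 genes were higher in both. The median log2 ratio of the list was 1.24 in WT and 1.66 in KIKO, beside medians over all genes of -0.001 and 0.008. Emcn, endomucin, was the member lower in both, at 532 and 599.9 CPM in venous cells against 599.6 and 685 CPM. Several members of this list were also named by their rank above, so that the count is no independent evidence.

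Of 14 measured other arterial genes, 12 were lower in venous cells in both libraries and 2 higher, against 29.8% of all genes lower in both. The medians were -0.79 and -1.12. The Notch ligand Dll4 stood at 53.8 and 43.0 CPM in venous cells against 96.8 and 83.8 CPM in other endothelial cells, and its target Hey1 at 8.12 and 15.5 CPM against 45.9 and 49.5 CPM. Efnb2, the ephrin that marks arteries, stood at 25.6 and 14.1 CPM against 57.4 and 50.7 CPM, while its venous partner Ephb4 stood at 49.6 and 71.3 CPM against 50.04 and 43.2 CPM. Nrp1, often used as an arterial gene, was level at 165 and 213 CPM against 151 and 197 CPM.

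Response genes of interleukin-1 and tumor necrosis factor (TNF) lay mostly higher. Of 18 measured, 12 were higher in venous cells in both libraries and 1 lower, against the 30.8% of all genes, with medians of 0.47 and 0.41. Irf1, an interferon-regulatory transcription factor, stood at 211 and 173 CPM against 115 and 102 CPM, and Nfkbia, the inhibitor that NF-kappaB induces against itself, at 1635 and 1355 CPM against 1257 and 1121 CPM. Relb, Tnfaip3 and Csf1 were also higher in both, at log2 ratios of 0.39 to 1.03. Lcn2, a siderophore-binding protein of acute inflammation, had 23 and 51 UMIs, 9.83 and 13.9 CPM against 2.67 and 2.49 CPM. Tnfrsf1a, the receptor of TNF, was the member lower in both, by -0.15 in WT and -0.12 in KIKO.

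The promoters of these genes were searched for an NF-kappaB-like motif, GGGNNTTNCC or, on the other strand, GGNAANNCCC. The windows were RefSeq promoters of build GRCm38.p6, 300 bases from 250 before to 50 after the start of the gene. Of the 18 response genes with a window, 5 held the motif (Nfkbia, Tnfaip3, Nfkb2, Bcl3 and Csf1), and of 9 chemokine and cytokine genes with a window 5 did (Cxcl1, Cxcl9, Cxcl10, Il6 and Csf1), against 5.48% of 27025 genes. A match is a description of letters and no binding site. Windows were lacking for Vcam1, and those of Icam1, Ptgs2, Sele and Il1r1 held no match. The 3 windows below are those of a chemokine, an inhibitor and a growth factor described here, at chr5:90890995-90891294 (plus strand), chr12:55492598-55492897 (minus strand) and chr3:107760420-107760719 (minus strand), each printed 5′ to 3′ along the gene with matches in capitals. Cxcl1 had 2 matches that do not overlap, 1 on each strand, and Nfkbia and Csf1 had 1 each, on the strand opposite to the gene.
Cxcl1: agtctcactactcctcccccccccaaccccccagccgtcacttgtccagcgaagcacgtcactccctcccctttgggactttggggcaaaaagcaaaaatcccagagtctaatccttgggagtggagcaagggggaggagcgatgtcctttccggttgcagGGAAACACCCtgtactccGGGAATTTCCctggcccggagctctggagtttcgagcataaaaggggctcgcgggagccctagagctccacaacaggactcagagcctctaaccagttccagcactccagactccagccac
Nfkbia: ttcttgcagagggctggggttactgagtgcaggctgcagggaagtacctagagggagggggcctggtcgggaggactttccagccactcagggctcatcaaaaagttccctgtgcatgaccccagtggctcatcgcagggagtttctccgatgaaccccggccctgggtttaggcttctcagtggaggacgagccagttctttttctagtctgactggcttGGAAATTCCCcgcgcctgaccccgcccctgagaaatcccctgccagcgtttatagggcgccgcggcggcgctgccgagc
Csf1: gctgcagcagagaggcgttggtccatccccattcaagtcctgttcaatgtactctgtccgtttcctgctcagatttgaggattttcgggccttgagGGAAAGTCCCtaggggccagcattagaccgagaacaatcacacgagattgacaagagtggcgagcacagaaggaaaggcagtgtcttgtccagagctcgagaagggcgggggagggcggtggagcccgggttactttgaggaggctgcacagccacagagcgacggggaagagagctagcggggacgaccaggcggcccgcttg

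These 3 genes differed in how they stood between the classes and libraries. Cxcl1, the neutrophil-attracting chemokine, had 156 UMIs in venous cells of WT and 106 in those of KIKO, 66.7 and 28.8 CPM, against 12.4 and 18.7 CPM in other endothelial cells. It was in few cells, 43 of 231 in WT and 40 of 360 in KIKO. Csf1, the growth factor of macrophages and microglia, stood at 29.5 and 45.7 CPM in venous cells against 17.5 and 27.2 CPM, a log2 ratio of 0.76 and 0.75.

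Capillary genes went both ways. Of 14, 7 were higher in venous than in other endothelial cells in both libraries and 6 lower, 1 of them by at least 2-fold. Of all genes, 30.8% were higher and 29.8% lower in both libraries. The list medians were 0.08 and -0.002. Slc2a1, the glucose carrier of the barrier, stood at 3042 and 2482 CPM in venous cells against 2980.1 and 2543 CPM. Tfrc, the transferrin receptor that brings iron in, stood at 269 and 366 CPM against 201 and 211 CPM, and the iron exporter Slc40a1 at 256 and 317 CPM against 187 and 213 CPM. Cxcl12, a chemokine of capillary and arterial cells, was lower at 836 and 1116 CPM against 1887 and 2426 CPM, and Mfsd2a, the lipid carrier that keeps transcytosis low, at 138 and 176 CPM against 217 and 232 CPM.

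Of 18 solute carriers of the barrier, 11 were higher in both libraries and 3 lower, and of 17 Wnt and beta-catenin barrier genes 10 and 3, against 30.8% of all genes higher and 29.8% lower in both, with list medians between 0.11 and 0.14. Lef1, a transcription factor of that pathway, stood at 1002 and 1072 CPM in venous cells against 729.6 and 841 CPM in other endothelial cells. Of the basement membrane genes 10 of 14, and of the TGF-beta and BMP genes 9 of 16, were lower in both, beside the same 29.8%. Smad6, an inhibitor of BMP signalling, stood at 21.8 and 24.2 CPM against 47.4 and 42.1 CPM. Among coagulation and Weibel-Palade body genes, Rab27a, which guides the granules that store von Willebrand factor, stood at 13.7 and 17.96 CPM against 3.85 and 3.44 CPM, while Procr stood at 9.40 and 11.7 CPM against 20.4 and 17.8 CPM. Angpt2, also held in those granules, stood at 8.97 and 16.1 CPM against 29.6 and 27.0 CPM.

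The counts of the other lists stand beside the 30.8% of all genes higher and 29.8% lower in both libraries. Mitochondrially encoded subunits were higher in both libraries for 10 of 13 genes and lower for none, with medians of 0.05 and 0.14, while 2 of 38 nuclear respiratory subunits were higher and 17 lower (-0.04 and -0.05). Immediate early genes were higher in both for 13 of 19 (0.17 and 0.05), heat-shock chaperones lower for 9 of 16 (-0.13 and -0.10) and glycolysis genes lower for 10 of 15 (-0.11 and -0.13). Glucocorticoid-responsive genes (0.11 and 0.10), MHC class I genes (0.17 and 0.02), interferon-stimulated genes (-0.03 and -0.13), VEGF and angiopoietin genes (0.14 and 0.11), junction genes (0.05 and 0.15), ABC transporters (0.05 and -0.04), leukocyte adhesion molecules (-0.10 and -0.05), coagulation genes (-0.08 and -0.18) and Nrf2 targets (-0.18 and 0.10) had medians near 0, and iron handling genes had medians of -0.03 and 0.22. The few measured chemokines went from -0.58 in WT to 0.31 in KIKO, with Cxcl10 at 18 and 66 UMIs in venous cells, 61.1% of those of WT in 1 cell.

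Other genes were also read along the number of panel genes detected. After thinning to 3000 UMIs, endothelial cells outside the arterial panel were grouped by 0, 1, 2, 3 or at least 4 panel genes, with 326, 199, 106, 61 and 42 cells in WT and 467, 308, 164, 95 and 80 in KIKO. Nr2f2 stood at 55.6, 72.4, 108, 219 and 272 CPM along these groups in WT and at 29.2, 66.8, 101, 147 and 283 CPM in KIKO. Wnt5a went from 6.25 to 158 CPM in WT and from 7.37 to 139.7 CPM in KIKO. Both genes were higher in each group than in the one before it, in both libraries. Icam1 stayed between 47.2 and 58.7 CPM up to 2 panel genes in KIKO and reached 407 CPM at 4 or more, and in WT it reached 346 CPM at 3 panel genes and 316 CPM at 4 or more.

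Cxcl12 went down along the same groups, from 1738 to 356 CPM in WT and from 2509 to 461 CPM in KIKO, and Mfsd2a from 203 to 106 CPM and from 229.7 to 87.3 CPM. Tfrc and Slc16a1, a lactate carrier, were highest in the middle. Tfrc stood at 289.8 CPM with 3 panel genes and 169.9 and 229.9 CPM at the ends in WT, and at 422 CPM with 3 panel genes and 154 and 368 CPM at the ends in KIKO. The panel was used to choose the cells, and these levels are therefore a description. Summed levels cannot tell a gradient among cells apart from a mixture of venous and other cells.

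**Figure D4:**
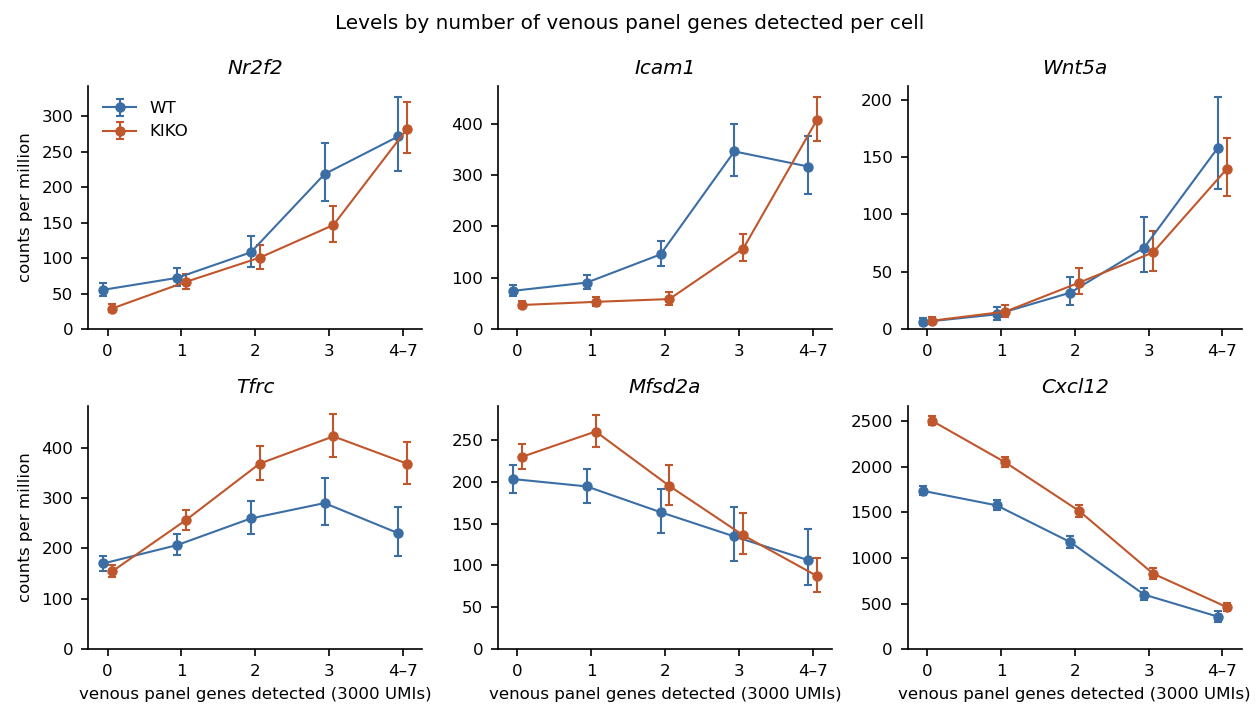
Level in CPM of Nr2f2, Icam1, Wnt5a, Tfrc, Mfsd2a and Cxcl12 by the number of venous panel genes detected per cell after thinning to 3000 UMIs, in endothelial cells of WT (blue) and KIKO (orange) outside the arterial panel, with exact 95% Poisson intervals. Nr2f2, Wnt5a and Icam1 are higher at 4 to 7 genes than at 0, as Nr2f2 is with 272 against 55.6 CPM in WT, Tfrc is highest at 3 genes, and Mfsd2a and Cxcl12 are lower at 4 to 7 than at 0.

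The members were also split by the same panel genes, here without thinning. Median depth was 8523 UMIs with 3 genes and 10914.5 UMIs with 4 to 7 in WT, and 7628.5 and 10795.5 UMIs in KIKO. The panel both chose the cells and made this split, so that the values are a description. Members with 4 to 7 panel genes, set against members with exactly 3, had more Icam1, by a log2 ratio of 1.68 (1.34 to 2.02) in WT and 1.85 (1.48 to 2.24) in KIKO. Wnt5a was higher by 1.04 (0.47 to 1.64) and 1.06 (0.55 to 1.60) and Nr2f2 by 0.69 (0.37 to 1.01) and 0.88 (0.57 to 1.21). Ptgs2 differed more between the libraries, with 30 UMIs in the 3-gene members of WT and 3 UMIs in those of KIKO. Cxcl12 was lower in the members with more panel genes, by -0.90 (-1.03 to -0.77) and -0.97 (-1.06 to -0.88), while Car4, a carbonic anhydrase, was level at 0.00 (-0.13 to 0.14) and 0.12 (0.00 to 0.23).

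The UMIs of several genes came from few venous cells. The top 10% of venous cells, 24 in WT and 36 in KIKO, held 87.8% and 89.9% of all Ptgs2 UMIs, 71.0% and 70.9% of Icam1 and 87.8% and 96.2% of Cxcl1. It also held 90.0% and 79.2% of Cyp2e1 and 72.5% and 65.4% of Nckap5. The share was 46.7% and 45.7% for Nr2f2 and 22.7% and 24.0% for Slc2a1, a more abundant gene with a median of 28 and 22 UMIs a cell, and it depends on the count level. With cells thinned to 3000 UMIs, Icam1 was found in 54 of 226 venous cells of WT and 74 of 355 of KIKO.

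Detection of Icam1 was set beside that of other genes in the same thinned cells. Nr2f2 was found in 44.4% of the Icam1-positive venous cells of WT (24 of 54, 30.9 to 58.6) and 29.1% of the others (22.4 to 36.5), and in KIKO in 52.7% (39 of 74, 40.7 to 64.4) and 25.3% (20.3 to 30.8). Ptgs2 was found in 18.5% and 8.14% of these cells in WT and in 22.97% and 4.98% in KIKO. Wnt5a was found in 20.4% and 11.6% in WT and in 25.7% and 11.7% in KIKO. Nr2f2, Ptgs2 and Wnt5a were thus each found more often in Icam1-positive cells, in both libraries. Their intervals overlapped in WT and did not overlap in KIKO, where those of Wnt5a nearly met (16.2 to 37.2 and 8.22 to 16.1). Tfrc went the other way, at 40.7% and 46.5% in WT and 41.9% and 59.8% in KIKO, with intervals that overlapped in both. All intervals given here cover the counting of cells within 1 library, and no test was run. Whether they overlap depends on the number of cells, 226 in WT and 355 in KIKO. No difference between the libraries is therefore read from the overlap. Cxcl12 was found in 48.1% of Icam1-positive cells and 70.9% of the others in WT, with intervals that did not overlap (34.3 to 62.2 and 63.5 to 77.6), and in 59.5% and 74.7% in KIKO, with intervals that did (47.4 to 70.7 and 69.2 to 79.7).

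Between genotypes, few genes of the venous cells differed by 2-fold. Of 3770 genes with at least 50 CPM in 1 library and 30 UMIs, 4 were at least 2-fold higher in KIKO, 0.106%, and 10 at least 2-fold lower, 0.265%. In other endothelial cells 1 gene of 3730 was as much higher and 6 as much lower, and of 3558 genes measured in both classes only Egr1 was past 2-fold in both. The median log2 ratio of KIKO over WT over 11828 genes in venous cells was 0.045, with 55.9% of genes higher and 44.1% lower.

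Heat-shock genes made up 3 of the 4 genes that were higher. Hspa1a, an inducible Hsp70 chaperone, stood at 1322 CPM in venous cells of WT and 2700.5 CPM in those of KIKO, a log2 ratio of 1.03 (0.97 to 1.09), and its near-identical copy Hspa1b at 821 and 1706 CPM (1.06, 0.98 to 1.13), so that reads may be split between them. Hsph1, an Hsp110 chaperone, was higher by 1.24 (1.04 to 1.45). The same 3 genes were higher in other endothelial cells too, by 0.72, 0.96 and 0.84. Unc13c, a synaptic vesicle priming factor (chr9:73479422-73968966, minus strand), was the fourth gene, at 38.5 and 112 CPM, a log2 ratio of 1.54 (1.21 to 1.89) in venous and 0.62 in other endothelial cells.

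Over the list of 16 heat-shock chaperones, 13 were higher in venous cells of KIKO and 3 lower, against 55.9% of all genes higher. The median log2 ratio was 0.23 in venous, 0.21 in other endothelial and 0.24 in arterial cells and -0.03 in cells that were not endothelial. The cells that were not endothelial, 571 of WT and 769 of KIKO, are a mixture of cell types, with 87 and 153 microglia-like cells. The part of a differing mixture in their values was not tested. Over all genes in this mixture, 7797 of 15764 were higher in KIKO and 7967 lower, with a median of -0.008. Besides the 3 genes above, Bag3, a co-chaperone of Hsp70, was higher by 0.59 (0.30 to 0.88), and Hsp90ab1 was level at 0.01 (-0.03 to 0.05).

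Immediate early genes were lower without exception. All 19 were lower in venous cells of KIKO, against 44.1% of all genes, with a median of -0.46, and all 19 in other endothelial cells, with a median of -0.48. Fos, the partner of Jun in AP-1, stood at 4728 CPM in venous cells of WT and 2785 CPM in those of KIKO (-0.76, -0.80 to -0.72), and Egr1, a zinc-finger factor, at 1768 and 739 CPM (-1.26, -1.33 to -1.19). Klf2, a factor kept up by blood flow, differed less (-0.17, -0.20 to -0.13). In the mixture of cells that were not endothelial 15 of 19 were lower, against 7967 of 15764 genes, with a median of -0.39. When barcodes over 20000 UMIs were let in, the median in venous cells was 0.03, beside 0.21 for all genes.

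Of 14 glucocorticoid-responsive genes 11 were lower in venous cells, against 44.1% of all genes, with a median of -0.28 in venous and -0.30 in other endothelial cells. With no upper UMI limit the venous median turned to 0.12. Fkbp5, an Hsp90 co-chaperone of the glucocorticoid receptor, stood at 91.5 and 45.2 CPM (-1.02, -1.32 to -0.72) in venous cells and was 1 of the 10 genes past 2-fold. It was higher in venous than in other endothelial cells in both libraries, by 1.39 and 1.14. Sgk1, a salt-regulated kinase, differed by -0.58 (-0.73 to -0.44) between the libraries.

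Of 19 interleukin-1 and TNF response genes 6 were higher in venous cells of KIKO and 13 lower, against 44.1% of all genes lower, with a median of -0.20, and -0.17 in other endothelial cells. The venous median turned to 0.23 with no upper UMI limit. Icam1 was lower by -0.36 (-0.53 to -0.19), Nfkbia by -0.27 (-0.33 to -0.21) and Socs3, a brake on cytokine signalling, by -0.68 (-0.89 to -0.48), whereas Csf1 was higher by 0.63 (0.22 to 1.06). Cxcl1 was lower by -1.21 (-1.58 to -0.84) in venous cells and 0.59 higher in other endothelial cells, but when venous cells with at least 2 genes of another cell type list were left out the ratio was 0.64, from 48 cells of WT and 155 of KIKO. Nr2f2 (-0.17, -0.36 to 0.02), Ptgs2 (-0.15, -0.46 to 0.16) and Wnt5a (0.07, -0.24 to 0.38) did not differ beyond counting error.

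Antigen presentation genes were mixed. Of 13 genes of MHC class I, 10 were higher in venous cells of KIKO, against 55.9% of all genes, with a median of 0.15, and H2-K1 was higher by 0.24 (0.16 to 0.32). In the mixture of cells that were not endothelial 13 of 13 were higher, against 7797 of 15764 genes, with a median of 1.14. MHC class II genes were scarce in venous cells. Cd74, the chain that chaperones class II, had 5 UMIs in 4 cells of WT and 138 UMIs in 17 cells of KIKO, 38.4% of them in 1 cell, and H2-Aa had 0 and 34 UMIs. Microglia-like cells had 2526 and 7127 CPM of Cd74, and the part of their RNA in the venous values was not tested. With venous cells holding at least 2 genes of another cell type list left out, the median of the class II list went from 3.29 to -1.04.

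The chemokines Ccl2 and Cxcl9 rested on few cells. Ccl2, which draws monocytes, had 0 UMIs in venous cells of WT and 32 UMIs in 4 cells of KIKO, and the same number of Cxcl9 UMIs lay almost wholly (96.9%) in 1 cell of KIKO. Cxcl12 was higher in KIKO in venous (0.42, 0.34 to 0.49) and other endothelial cells (0.36). Of 21 interferon-stimulated genes 11 were higher and 10 lower, against 55.9% of all genes higher, with a median of 0.02.

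Of 18 solute carriers 12 were higher in venous cells of KIKO and 6 lower, a share near the 55.9% of all genes that were higher. Their median was 0.30 in venous and 0.11 in other endothelial cells. It was -0.32 in the mixture of cells that were not endothelial, where 16 of 18 were lower, against 7967 of 15764 genes. The organic anion carriers Slco1c1, which takes up thyroid hormone, and Slc22a8 were higher by 0.40 (0.32 to 0.47) and 0.43 (0.28 to 0.59), and Slc7a1, the arginine carrier, by 0.36 (0.24 to 0.48). Slc2a1 was lower by -0.29 (-0.34 to -0.25). Of 9 VEGF and angiopoietin genes 7 were higher with a median of 0.34, including the VEGF receptor Kdr by 0.34 (0.20 to 0.48), Tek by 0.28 (0.17 to 0.40) and Nrp2 by 0.44 (0.17 to 0.71).

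The genes of iron-sulphur clusters and of iron handling named here went both ways. Iscu, the scaffold on which iron-sulphur clusters are built, stood at 76.9 and 74.3 CPM (-0.05, -0.33 to 0.23), and Nfs1, the sulphur donor, at 13.7 and 20.7 CPM (0.60, -0.02 to 1.24). Of 10 iron handling genes 6 were higher, against 55.9% of all genes, with a median of 0.13. Tfrc was higher by 0.44 (0.31 to 0.58) in venous and 0.07 in other endothelial cells, a difference that was not tested, and the ferritin chains Fth1 and Ftl1 were lower by -0.18 (-0.25 to -0.11) and -0.27 (-0.34 to -0.19).

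The 38 nuclear respiratory subunits had a median of -0.04 in venous cells with 25 lower, against 44.1% of all genes, and 0.00 in arterial cells. In the mixture of cells that were not endothelial all 38 were lower, against 7967 of 15764 genes, with a median of -0.59. Of 13 mitochondrially encoded subunits 7 were higher and 6 lower, with a median of 0.12. With no upper UMI limit the 2 medians were -0.53 and -0.37, and without members holding at least 2 other-type genes the mitochondrial one was -0.11, so that its direction turned. The 2 mitochondrial genes with the largest ratio, mt-Co2 and mt-Co3, core subunits of cytochrome oxidase, were higher by 0.54 (0.49 to 0.59 and 0.50 to 0.59) in venous cells and by 0.48 and 0.44 in other endothelial cells. Of 15 glycolysis genes 10 were lower, against 44.1% of all genes, with a median of -0.05. Of 14 Nrf2 target genes 8 were higher, against 55.9% of all genes, with a median of 0.11, and -0.25 in other endothelial cells.

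The counts of the lists that follow stand beside the 55.9% of all genes higher and 44.1% lower in venous cells of KIKO. Capillary genes had a median of 0.20 with 9 of 14 higher, and 8 measured chemokines and cytokines one of 0.52 with 5 higher, mostly from the scarce genes above. The remaining lists had medians between -0.16 and 0.12. Other venous genes were at 0.12 with 8 of 11 higher, and Wnt and beta-catenin barrier genes also at 0.12 with 12 of 17 higher. Tight and adherens junction genes were at 0.09, leukocyte adhesion molecules at 0.08, ABC efflux transporters at 0.07, and matrix genes at 0.02. Coagulation and TGF-beta genes were both at -0.03. Other arterial genes were at -0.16 with 9 of 14 lower, among them Stmn2 by -0.68 (-1.01 to -0.35) and Sox17, an arterial transcription factor, by -0.46 (-0.61 to -0.32).

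**Figure D5:**
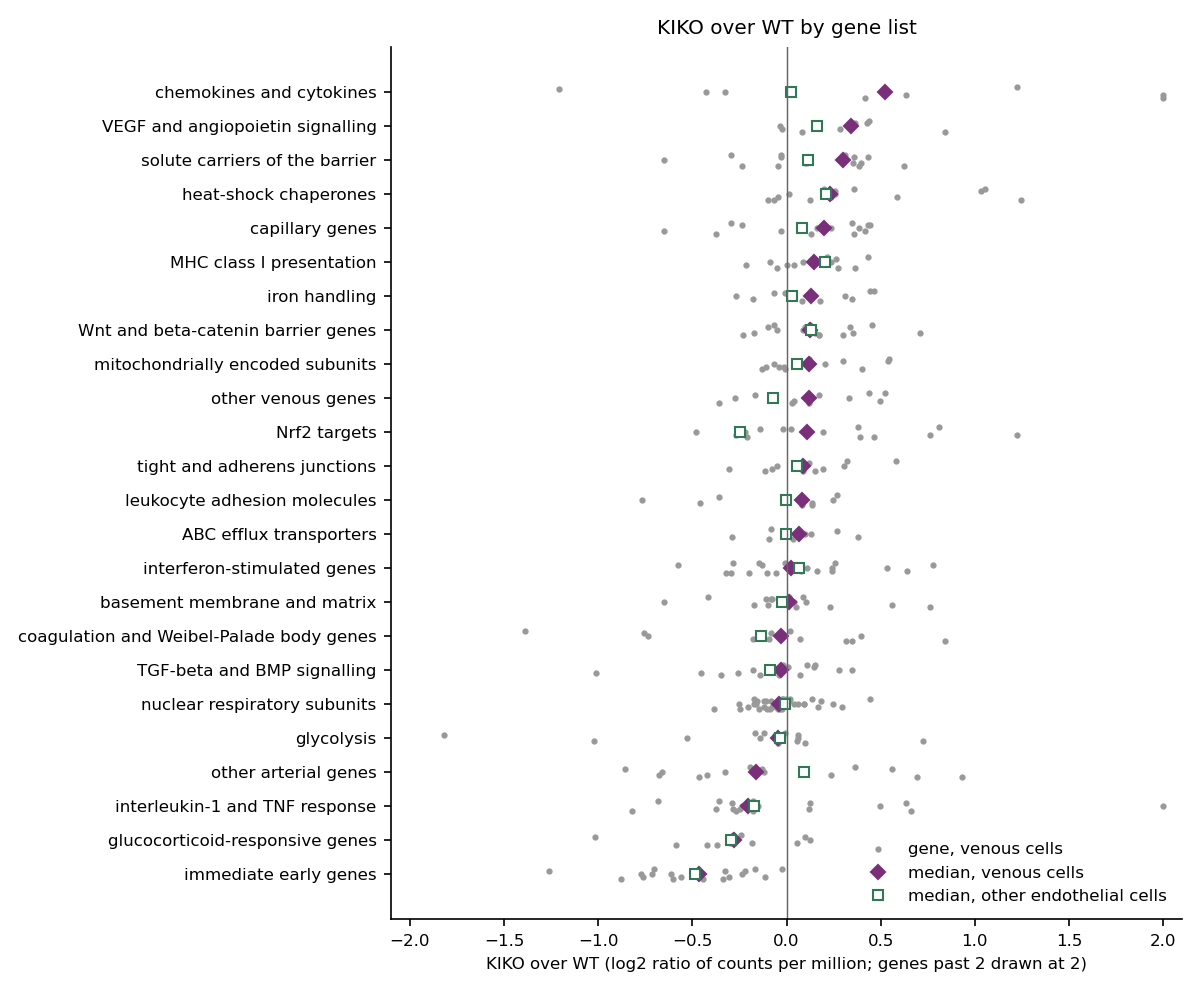
Log2 ratio of KIKO over WT in venous cells for the genes of the lists described here, 1 gray point a gene, with the list median in venous (purple diamonds) and other endothelial cells (green squares); genes past 2 are drawn at 2 and the MHC class II list is not among them. Immediate early genes lie below 0 in every case (median -0.46 in venous and -0.48 in other endothelial cells), and the heat-shock medians are 0.23 and 0.21.

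The other genes past 2-fold lower in venous cells of KIKO were Hbb-bs, Hba-a1, Hba-a2, Ttr, Stra6, Emp1 and Enpp2. Ttr and Enpp2 are genes of the choroid plexus epithelium, whose list summed to 2287 CPM in venous cells of WT and 830 CPM in those of KIKO, and the part of that RNA in these ratios was not tested. Stra6, a receptor for retinol-binding protein, stood at 75.2 and 35.1 CPM (-1.10, -1.44 to -0.76), and Emp1, a membrane protein high in arterial cells, with 117 and 87 UMIs (-1.08, -1.50 to -0.67). The 10 genes ranked highest also held Sdk1, Pde4d, Mob3b, Cyp2e1, Prr5l and Nckap5, at log2 ratios of 0.80 to 0.97. Of these, Sdk1 was lower in KIKO in other endothelial cells (-2.06), where 1 cell held 80.6% of the UMIs of WT.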

How the data were processed

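Single-cell 3′ libraries (10x Chromium) of 1 WT and 1 KIKO cerebellar pool were used. The authors deposited gene-by-barcode tables of raw UMI counts; per the file headers these came from Cell Ranger 7.0.1, and the labels name mm10. From these counts, barcodes with over 500 genes, over 1000 and at most 20000 UMIs and under 10% mitochondrial UMIs were kept. No doublet caller was run, and the upper limit was the only step against doublets. UMIs were summed per class and library (Python 3.11.15, numpy 2.4.6, scipy 1.17.1, pandas 2.3.3) and compared as log2 ratios of CPM with exact 95% Poisson intervals; shares have exact binomial intervals and differences Newcombe intervals. With 1 library a group no test was run. A count of 0 was set to 3 UMIs for a bound. Genes named are those of the rule and lists, the 15 highest and 10 lowest for venous over other cells, and the 10 highest and lowest for KIKO over WT. Of 32285 gene IDs, 32235 matched GENCODE vM21 (GRCm38), which gave the coordinates, and 32245 gene symbols were used. Venous cells hold 2340024 (WT) and 3675672 (KIKO) UMIs. The calculations were checked on simulated data. The members and the 26 gene lists were chosen with earlier results of these data known. Some genes and 1 list are not reported here.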

Additional observations from a re-analysis of the deposited data

Results flagged for a closer look

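Hbb-bs, Hba-a1 and Hba-a2, hemoglobin genes of red blood cells, were lower in venous cells of KIKO than of WT by log2 ratios of -3.11, -2.49 and -2.80 and higher in other endothelial cells by 0.89, 0.71 and 0.68, opposite directions whose difference was not tested. In WT 1 venous cell held 93.0%, 88.2% and 88.8% of the venous UMIs of Hbb-bs, Hba-a2 and Hba-a1. Ttr, the transthyretin of choroid plexus epithelium, was lower by -1.50 in venous cells and higher by 0.81 in other endothelial cells, and this difference was not tested either. Its levels in venous cells were 2140.2 CPM in WT and 759 CPM in KIKO.

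Outside the main measurement, 115 barcodes of WT and 75 of KIKO with more than 20000 UMIs also met the venous rule, of 184 and 167 such barcodes that were endothelial. Their median depth was 33159 and 27199 UMIs, 37 and 10 of them held at least 5 of the 6 choroid plexus genes, and their Ttr level was 187057 and 98161 CPM.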

How the results depend on the processing

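The signs of all 50 venous over other log2 ratios of named genes were kept under the 10 alternatives. With cells called at 4 or 2 panel genes the venous share was 15.9% and 42.2% in WT and 18.2% and 43.9% in KIKO, without Flrt2 21.3% and 22.6%, and after thinning 13.5% and 14.8%. Leaving out members with at least 2 genes of another cell type list gave 7.57% and 14.2% (a difference of 6.66 points); with at least 3, an alternative chosen after seeing the data, WT was 24.6%. With no upper UMI limit WT was 34.6% and the difference -4.79 points.

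Counts of genes past 2-fold depended on the floor. At 20 CPM they were 26 higher and 33 lower for venous over other cells and 22 and 22 for KIKO over WT; at 100 CPM 6 and 8, with 5 lower for KIKO over WT. With thinned classes they were 32 and 28, with 24 higher for KIKO over WT. With members of at least 2 other-type genes left out they were 28 lower, and 36 and 22; with at least 3, 6 lower; with no upper limit, 52 and 175 for KIKO over WT.

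With no upper limit the median of all genes for KIKO over WT moved from 0.045 to 0.21, and list medians to 0.032 (immediate early), 0.12 (glucocorticoid), 0.23 (interleukin-1 and TNF), 0.24 (TGF-beta), 0.44 (other arterial), 0.46 (coagulation), 0.49 (interferon), 0.51 (matrix), 0.55 (junctions), 0.63 (MHC class I), 0.64 (adhesion), 0.67 (solute carriers), 0.69 (Wnt), 0.71 (other venous), 0.74 (VEGF), 0.77 (capillary), 0.94 (chemokines), 1.57 (MHC class II), -0.37 (mitochondrial) and -0.53 (nuclear respiratory). Thinned classes gave -0.075 (MHC class I), 1.31 (MHC class II) and -0.27 (coagulation). Without members of at least 2 other-type genes, MHC class II was -1.04, interferon -0.27, mitochondrial -0.11 and other venous -0.29; with at least 3, MHC class II was 0.98. The ratios of Hbb-bs, Hba-a1 and Hba-a2 turned to 2.28, 2.12 and 2.18 with no upper limit and 0.62, 1.22 and 0.26 with thinned classes, Hbb-bs to 0.29 with the 3-gene exclusion, and Cxcl1 to 0.64 with the 2-gene exclusion. Causes were not tested. The heat-shock, solute carrier, capillary, VEGF, Wnt, chemokine, iron and nuclear respiratory medians kept their sign under all 10, and immediate early, glucocorticoid and interleukin-1 medians under the 9 with an upper limit. No paired analysis was possible because there is 1 library for each genotype, and no replicate could be left out. Depth limits genes under about 50 CPM.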
